A study of Mus musculus with 11 samples.

Results

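Choroid plexus and ependymal transcripts were followed in microarrays of mouse microglia. The choroid plexus set held Ttr, Folr1, Calml4, Slc4a5 and Cldn2, and the ependymal set held Foxj1, Rsph1, Dynlrb2, Tekt1 and Ccdc153. These 10 genes were chosen for what is known of both cell types and were found on the array by matching the RefSeq accession of each probe to a gene symbol. All 10 had a probe that passed the filter on dim signals, and they were compared within the 19555 genes tested.

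The study profiled microglia by single-colour Agilent arrays to ask how far cells in culture depart from freshly sorted ones and what added cytokines change. The animals were C57BL/6N mice. A_FACS held sorted microglia of adult female mice (n = 2), and NB_FACS held sorted microglia of newborn mice of both sexes (n = 3). NB_Control (n = 3) and NB_Stim (n = 3) held newborn microglia shaken off mixed brain cultures that had been fed with medium conditioned by L-929 cells, a mouse fibroblast line that secretes M-CSF. Each flask pooled several newborn brains and was kept for weeks before cells were harvested from it. The harvested cells were then kept for a day in DMEM/F12 with serum. NB_Stim also received 3 human cytokines, each at 100 ng/mL: CX3CL1, IL-34 and TGF-β1. Age and sex differed together between the sorted groups and cannot be told apart. Culture, the weeks in the flask and isolation by shaking differed together from sorting and cannot be told apart either. The sort kept cells with intermediate CD45 and high CX3CR1, a gate meant for microglia.

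The choroid plexus is a vascular fringe of the brain ventricles, covered by an epithelium that secretes cerebrospinal fluid. Its epithelial cells are known for very strong expression of Ttr, which encodes transthyretin, the carrier of thyroid hormone in the fluid. Ependymal cells line the ventricle walls and carry bundles of motile cilia, whose beat moves the fluid. Motile cilia rest on an axoneme of microtubules with dynein arms, radial spokes and linkers between the doublets, and the factor FOXJ1 drives the genes that build them. Microglia carry no motile cilia and come from yolk sac progenitors, not from the ventricular lining.

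Values are log2 normalised intensities. A probe was called above background when the scanner software marked it so, and the lowest signal called above background lay between 2.60 and 4.03 on the log2 scale in the 11 arrays. Between 66.8% and 80.4% of the probes were above background on an array. Replicate 3 of each newborn group was scanned on a second slide, and all other arrays lay on slide 1. The microglia list had probes for 9 of its 10 genes, and the sum of their linear levels lay between 293974 and 309525 in A_FACS, 185467 and 203405 in NB_FACS, 77073 and 90965 in NB_Control, and 171396 and 179270 in NB_Stim. The 2 A_FACS arrays stood apart from each other in choroid plexus and other genes. Differences of the 10 genes between A_FACS and NB_FACS are therefore given with and without each adult array. In bulk samples such as these, fewer cells of a type and less RNA per cell cannot be told apart.

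Of the 10 genes, 8 differed among the 4 groups by the F test, where 48.8% of all genes did. Cldn2 and Foxj1 were the 2 that did not. Between sorted and cultured newborn cells, 7 of the 10 genes were lower in NB_Control than in NB_FACS, against 13.9% of all genes that were lower, and 6 of 10 were lower in NB_Stim than in NB_FACS, against 15.1%. A difference was called at a Benjamini-Hochberg adjusted p under 0.05 over all genes, from limma's moderated test. 

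The calls of Dynlrb2, Tekt1 and Ccdc153 between sorted and cultured newborn cells held under every alternative run that could test them. With Tukey's test after the same adjustment, the calls of Ttr, Calml4 and Rsph1 in both comparisons and that of Folr1 in NB_Control were lost (adjusted p from 0.0706 to 0.175), and 3 of the 10 genes stayed called in each.

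**Figure D1:**
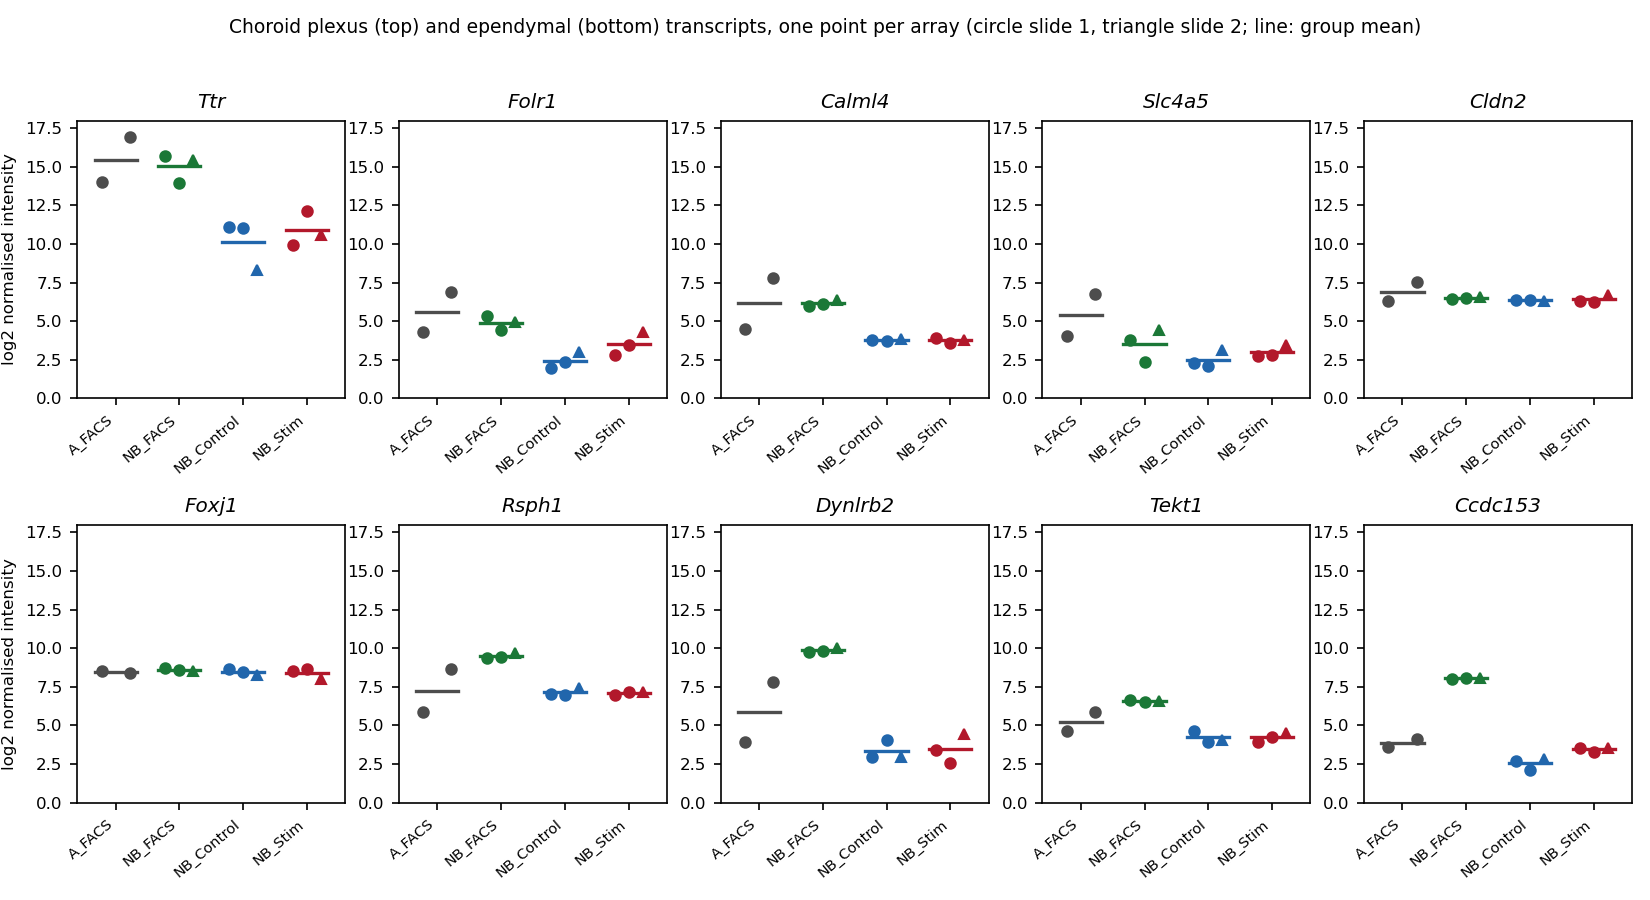
Log2 normalised intensity (vertical axis) of each of the 10 genes on each array, by group (horizontal axis), with circles for slide 1, triangles for slide 2 and a line at the group mean. The 3 NB_FACS arrays of Dynlrb2 lie between 9.76 and 10.005 and all 6 culture arrays lie between 2.58 and 4.42, while Foxj1 stays between 8.04 and 8.71 on all 11 arrays.

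Ttr was read above background on every array. In NB_FACS the 3 arrays gave log2 levels of 15.73, 13.95 and 15.46, and in A_FACS the 2 arrays gave 14.02 and 16.91. The cultures were lower, with 11.07, 11.01 and 8.33 in NB_Control and 9.93, 12.17 and 10.57 in NB_Stim. No culture array reached the lowest sorted array. Ttr was 30.1-fold lower in NB_Control than in NB_FACS (log2 difference -4.91 ± 0.97 SE, adjusted p = 0.00374) and 17.9-fold lower in NB_Stim (-4.16 ± 0.97, adjusted p = 0.00897). Its spread within groups was wide: in NB_Control its SD of 1.57 was larger than that of 99.8% of the genes tested, where the median SD was 0.20. Replicate 3 of NB_Control was the lowest array, and within slide 1 the NB_Control difference was -3.80, against -7.14 within slide 2.

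Folr1, a folate receptor of the choroid plexus epithelium, had 5 probes, of which 2 passed the filter. Its log2 levels were 5.35, 4.41 and 4.96 in NB_FACS and 4.32 and 6.89 in A_FACS. In NB_Control they were 2.00, 2.33 and 2.99, and only 1 of the 3 arrays had a probe above background. In NB_Stim they were 2.80, 3.49 and 4.31, with 2 of 3 arrays above background. The sorted newborn arrays lay above all culture arrays. Folr1 was 5.52-fold lower in NB_Control than in NB_FACS (-2.46 ± 0.62, adjusted p = 0.0132). The call was lost with normexp background correction (-0.53, adjusted p = 0.136), without a filter on dim probes (-0.98, adjusted p = 0.0590), and without NB_FACS replicate 1 (adjusted p = 0.0513) or NB_Control replicate 1 (adjusted p = 0.0520). The difference of NB_Stim from NB_FACS was -1.37 ± 0.62 (adjusted p = 0.125) and was not called.

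Calml4 encodes a calmodulin-like protein. Its mean over 4 probes was 6.01, 6.11 and 6.41 in NB_FACS, 3.80, 3.69 and 3.83 in NB_Control, and 3.91, 3.61 and 3.79 in NB_Stim on the log2 scale. The cultured arrays formed a tight band well under the sorted newborn ones. Calml4 was 5.28-fold lower in NB_Control (-2.40 ± 0.62, adjusted p = 0.0150) and 5.31-fold lower in NB_Stim (-2.41 ± 0.62, adjusted p = 0.0144). With normexp background correction the differences were -0.83 (adjusted p = 0.120) and -0.86 (adjusted p = 0.101). The 2 A_FACS arrays, at 4.53 and 7.78, lay on either side of the newborn sorted arrays.

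The 4 Calml4 probes did not move alike. Probe MMXS07613 differed by -3.73 between NB_Control and NB_FACS, MMXS32378 by -3.08 and MMXS53966 by -3.33, whereas MMXS02021 differed by 0.54 in the other direction. MMXS53966 passed the filter through NB_FACS alone. MMXS02021 stayed between 4.62 and 5.93 on all 11 arrays. It is also the only Calml4 probe above background on every array, so that a filter asking for that kept it alone and turned the direction of the gene's difference. Its 49 bases matched, without a mismatch, chr9:62858016-62858064 in GRCm38.p6 (RefSeq promoter table). That stretch lies 40 to 88 bases before the Calml4 start listed there, inside the gene's annotated span from 62857472 to 62875921.

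Slc4a5, a sodium bicarbonate cotransporter of the choroid plexus epithelium, passed the filter with 1 of its 5 probes, and did so through the adult arrays. Its log2 levels were 4.07 and 6.79 in A_FACS, and 3.79, 2.35 and 4.41 in NB_FACS, where 1 of 3 arrays was above background. NB_Control gave 2.29, 2.09 and 3.14, none of them above background, and NB_Stim gave 2.75, 2.80 and 3.49, with 1 of 3 above. The groups of newborn cells overlapped. Its difference of NB_Control from NB_FACS was -1.01 ± 0.70 (adjusted p = 0.326). Because the probe was kept for its adult signal, its calls by the F test and between A_FACS and any other group support nothing. They are included in the counts.

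Cldn2, a claudin of tight junctions in leaky epithelia such as this one, was read on every array. Its mean over 2 probes was 6.47, 6.51 and 6.55 in NB_FACS, 6.39, 6.39 and 6.29 in NB_Control, 6.33, 6.25 and 6.68 in NB_Stim, and 6.28 and 7.53 in A_FACS. Apart from replicate 2 of A_FACS, all arrays lay within a narrow band. The NB_Control difference was -0.15 with a 95% confidence interval from -0.76 to 0.45 (adjusted p = 0.725). The 2 probes differed in sign in that comparison, at 0.24 for MMXS10655 and -0.54 for MMXS59831.

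Foxj1, the master factor of motile cilia, had no called difference. Its log2 levels ran from 8.51 to 8.71 in NB_FACS, 8.37 to 8.52 in A_FACS, 8.25 to 8.64 in NB_Control and 8.04 to 8.68 in NB_Stim. All 4 groups overlapped, and its 11 values came from 1 probe. The NB_Control difference was -0.15 (95% confidence interval -0.56 to 0.26, adjusted p = 0.609), the NB_Stim difference from NB_FACS -0.17 (adjusted p = 0.519) and the A_FACS difference from NB_FACS -0.15 (adjusted p = 0.654). The axonemal genes below had another pattern.

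Dynlrb2 encodes a light chain of cytoplasmic dynein found in ciliated cells. It had log2 levels of 9.76, 9.83 and 10.005 in NB_FACS. In culture it fell to 2.97, 4.04 and 2.95 in NB_Control and to 3.39, 2.58 and 4.42 in NB_Stim, with 1 of 3 arrays above background in each of these groups. The sorted newborn arrays were close together and far above all others. The difference was 93.5-fold in NB_Control (-6.55 ± 0.84, adjusted p = 0.000298) and 84.5-fold in NB_Stim (-6.40 ± 0.84, adjusted p = 0.000348), the largest of the 10 genes in both comparisons. Most of the culture values were below background, so the size of both folds is uncertain.

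Ccdc153, a coiled-coil protein known as a marker of ependymal cells, gave 7.99, 8.10 and 8.06 in NB_FACS. NB_Control gave 2.71, 2.09 and 2.83, and NB_Stim gave 3.52, 3.30 and 3.56. No 2 groups of newborn cells overlapped. It was 45.4-fold lower in NB_Control (-5.51 ± 0.21, adjusted p = 2.83e-07) and 24.1-fold lower in NB_Stim (-4.59 ± 0.21, adjusted p = 8.71e-07). Of the 2 Ccdc153 probes, MMXS50139 was below background on all 6 culture arrays, and MMXS49446 was above it on 2 of 3 NB_Control arrays and on all 3 of NB_Stim. MMXS50139 passed the filter through NB_FACS alone, so the folds of the mean are uncertain in size. MMXS49446 alone differed from NB_FACS by -5.10 in NB_Control and by -4.42 in NB_Stim.

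Rsph1, a protein of the radial spoke head, gave 9.39, 9.44 and 9.69 in NB_FACS, 7.02, 6.96 and 7.43 in NB_Control, and 6.99, 7.16 and 7.18 in NB_Stim. It stayed above background on every array. The cultures were 5.17-fold lower in NB_Control (-2.37 ± 0.54, adjusted p = 0.00801) and 5.27-fold lower in NB_Stim (-2.40 ± 0.54, adjusted p = 0.00740).

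Tekt1 encodes tektin 1, a filament protein inside the doublet microtubules. Its mean over 2 probes was 6.67, 6.53 and 6.61 in NB_FACS, 4.67, 3.96 and 4.05 in NB_Control, and 3.92, 4.29 and 4.50 in NB_Stim. Tekt1 was 5.19-fold lower in NB_Control (-2.37 ± 0.31, adjusted p = 0.000301) and 5.16-fold lower in NB_Stim (-2.37 ± 0.31, adjusted p = 0.000310). Probe MMXS01756 was below background on all 6 culture arrays, so the folds of the mean are uncertain in size. Both probes of Tekt1 gave lower values in culture, by -1.65 (MMXS57666) and -3.10 (MMXS01756) in NB_Control. They parted on the adult arrays, and their sequences are shown for that reason:
MMXS57666: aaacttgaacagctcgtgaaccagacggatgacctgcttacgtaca
MMXS01756: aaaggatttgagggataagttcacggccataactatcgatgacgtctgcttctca
MMXS57666 gave 7.73 and 7.49 in A_FACS against 7.48 to 8.11 in NB_FACS, so that the groups overlapped. MMXS01756 gave 1.55 and 4.22 in A_FACS, with 1 of 2 arrays above background, against 5.10 to 5.68 in NB_FACS. It passed the filter through NB_FACS alone, whereas MMXS57666 was above background on every array. The probes are listed under different Tekt1 transcripts.

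**Figure D2:**
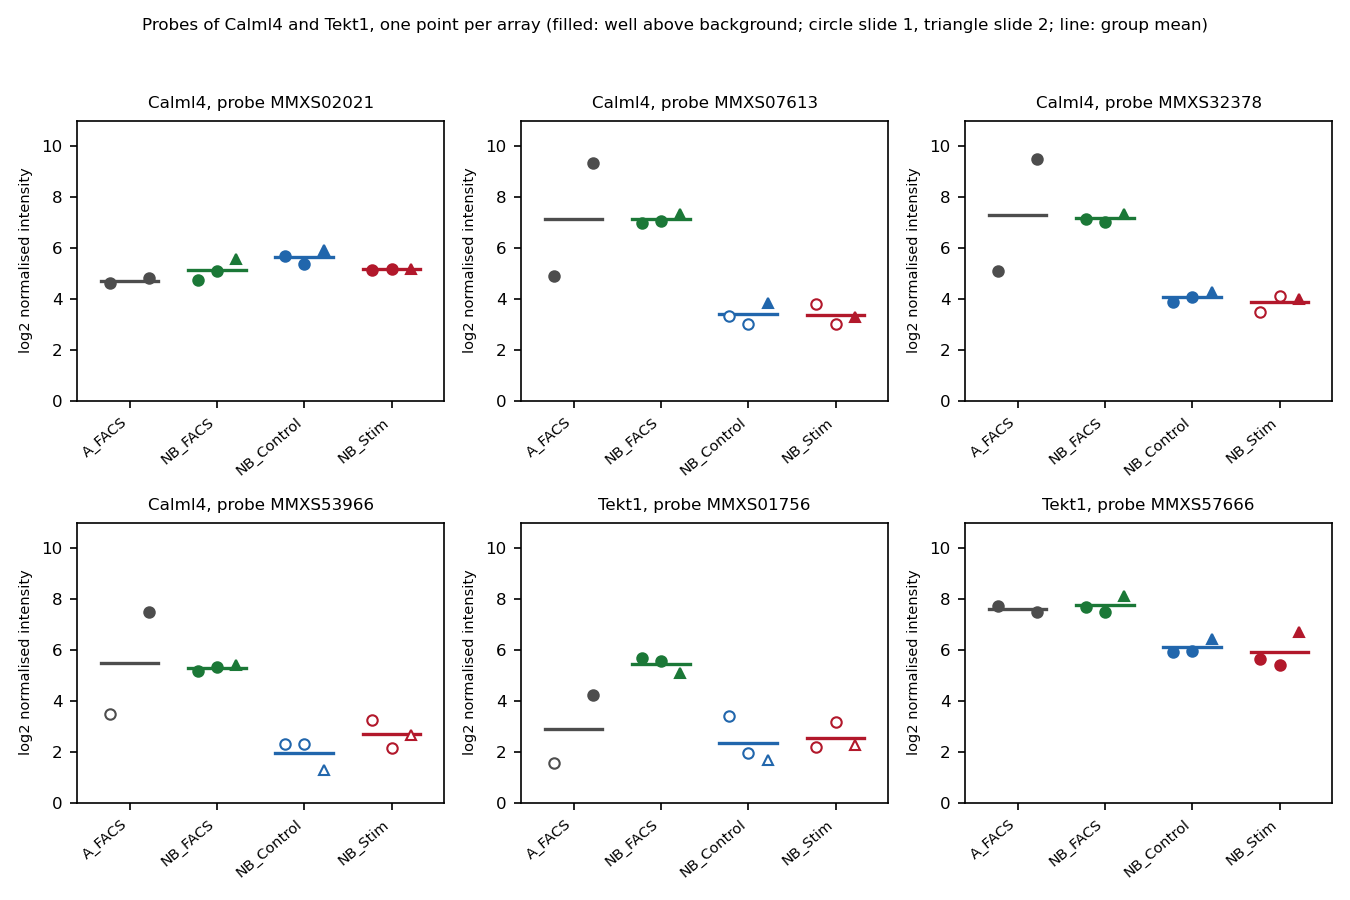
Log2 normalised intensity (vertical axis) of each Calml4 and Tekt1 probe on each array, by group (horizontal axis), with filled symbols above background and lines at group means. Calml4 probe MMXS02021 stays between 4.62 and 5.93 while the other 3 Calml4 probes drop in culture, and Tekt1 probe MMXS57666 keeps the adult arrays at 7.73 and 7.49.

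The promoters of the ependymal genes with the clearest drop were read from the RefSeq table of GRCm38.p6, which held 6 of the 10 genes. The bases before the listed start were searched on both strands for 4 motifs: GTTGCC, part of the motif of the RFX factors that act in ciliated cells, TGTTTAC, a forkhead core, TATAAA, the TATA box, and GGGCGG, the GC box. GTTGCC stood in 10.4% of 32851 promoters of 250 bases, TGTTTAC in 3.17%, TATAAA in 12.4% and GGGCGG in 32.7%. GTTGCC was present before Dynlrb2 (chr8:116504765-116505014, plus strand), Ccdc153 (chr9:44240427-44240676, plus strand) and 1 of 2 Tekt1 starts (30 bases shown, chr11:72361890-72361919, minus strand). They are printed with that motif, on either strand, in capitals:
Dynlrb2: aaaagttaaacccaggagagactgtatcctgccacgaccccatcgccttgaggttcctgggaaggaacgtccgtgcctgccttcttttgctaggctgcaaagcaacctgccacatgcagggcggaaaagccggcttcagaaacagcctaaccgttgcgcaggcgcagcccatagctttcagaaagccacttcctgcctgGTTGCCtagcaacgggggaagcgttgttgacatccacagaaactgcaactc
Ccdc153: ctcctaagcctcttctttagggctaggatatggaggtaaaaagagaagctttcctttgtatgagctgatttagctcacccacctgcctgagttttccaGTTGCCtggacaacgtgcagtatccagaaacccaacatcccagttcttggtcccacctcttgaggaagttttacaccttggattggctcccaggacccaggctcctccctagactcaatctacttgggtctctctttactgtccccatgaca
Tekt1: agGGCAACgttgcgtccgtccgGTTGCCat
The motif began 51 bases before the start of Dynlrb2, 152 before that of Ccdc153, and 35 and 15 before that of Tekt1. TGTTTAC was in none of these promoters and TATAAA in none, while GGGCGG was present once before Dynlrb2. Slc4a5, Cldn2 and Calml4, the choroid plexus genes in the table, held no GTTGCC, and TATAAA stood before Slc4a5 and Cldn2. Of 41 promoters of the wider cilia list, 16 held GTTGCC (39.0%), and of 28 promoters of the wider choroid plexus list, 2 did (7.14%). These are matches of letters, not sites of binding.

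The wider lists were read beside the 10 genes. The list of ependymal and motile cilia genes had 49 names, 46 with a probe and 40 that could be tested. In NB_Control, 25 of the 40 were lower than in NB_FACS and 0 were higher (62.5% lower, beside 13.9% of all genes), with a median log2 difference of -1.58 beside 0.09 over all genes. In NB_Stim, 25 of 40 were again lower and 0 higher, with a median of -1.59 beside 0.11. The other 15 genes in each comparison did not pass the test. Of the 40 genes 8 were above background on no NB_Control array and 5 on no NB_Stim array. At least Mia, Cfap52, Rarres2, Odf3b, Nme5 and Dnali1 passed the filter through NB_FACS alone, the only group that read them on all its arrays. Calls of such genes as lower than in NB_FACS are included in the counts but support nothing.

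Mia, a secreted protein, gave 6.41, 6.31 and 6.62 in NB_FACS and was below background in all 6 culture arrays, at least 8.05-fold lower in NB_Control (adjusted p = 4.85e-05) and at least 7.86-fold lower in NB_Stim (adjusted p = 4.18e-05). Drc1, part of the linker between doublets, was at least 15.5-fold lower in NB_Control (adjusted p = 0.00244). Cfap52, a protein inside the doublets, was at least 4.41-fold lower there (adjusted p = 0.000141), and Mlf1 was 18.7-fold lower (adjusted p = 0.000218). Mia and Cfap52 passed the filter through NB_FACS alone, so their calls support nothing. In NB_Stim, Meig1 (adjusted p = 2.45e-05), Mlf1 (adjusted p = 0.000149) and Drc3, another linker subunit (adjusted p = 0.000405), were lower than in NB_FACS. Their sizes are uncertain, since 1 of 3 NB_Stim arrays read Meig1, 1 of 3 read Mlf1 and 2 of 3 read Drc3 above background.

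**Figure D3:**
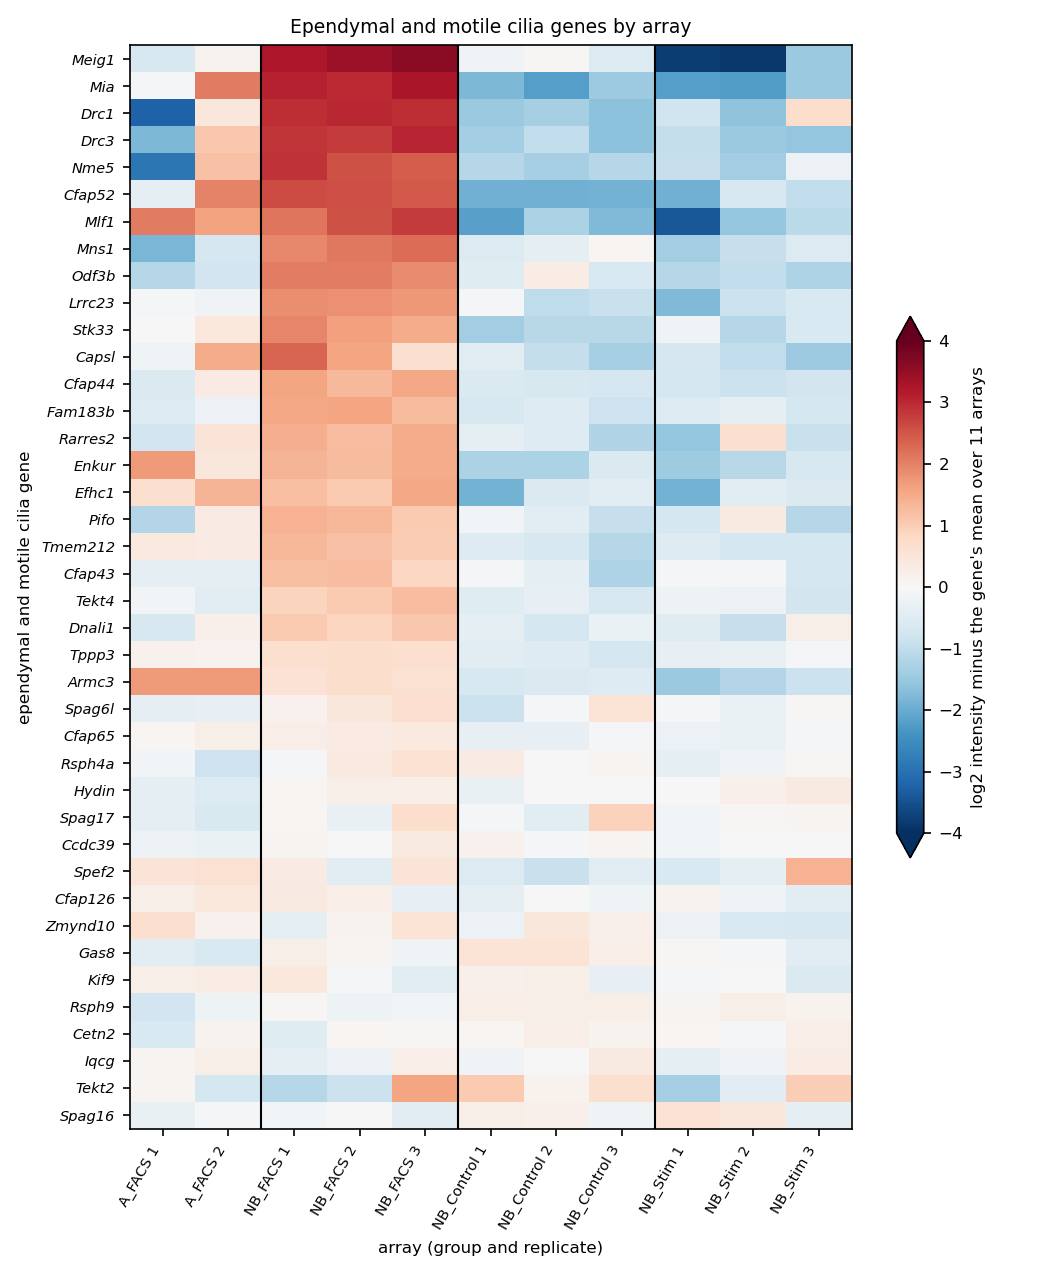
Log2 intensity minus each gene's mean over the 11 arrays (colour scale) for the 40 tested ependymal and motile cilia genes (rows, ordered by their mean in NB_FACS) on each array (columns, by group and replicate). The 3 NB_FACS columns are red for the upper rows, in which 25 of the 40 genes were called lower in NB_Control, and the lower rows differ little between arrays.

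The wider choroid plexus list was called lower in culture about as often as all genes. Of 32 names, 29 had a probe and 24 could be tested. In NB_Control 3 of 24 were lower than in NB_FACS (12.5%, beside 13.9% of all genes) and 0 were higher, with a median log2 difference of 0.24. Krt8, a keratin of simple epithelia, was at least 5.88-fold lower (adjusted p = 0.000301), Slc12a2, a sodium, potassium and chloride cotransporter, 4.34-fold lower (adjusted p = 3.76e-05) and Slc16a8, a lactate transporter, 1.73-fold lower (adjusted p = 0.0123). In NB_Stim 4 of 24 were lower than in NB_FACS (16.7%, beside 15.1% of all genes) and 1 was higher (4.17%, beside 16% of all genes). Among those that were lower were Aqp1, the water channel of the epithelium (14.0-fold, adjusted p = 0.0213), Krt8 (4.20-fold, adjusted p = 0.00231) and Slc12a2 (3.57-fold, adjusted p = 9.00e-05), and the gene that was higher was Atp1b1, a sodium pump subunit (5.09-fold, adjusted p = 0.0466). Aqp1 had stayed at 8.37, 7.75 and 10.36 in NB_Control, within reach of 8.58, 7.11 and 8.998 in NB_FACS.

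A list of 10 regulators of multiciliated cells was read in the same comparisons. In NB_Control 1 of 10 was lower than in NB_FACS (10%, beside 13.9% of all genes), with a median of 0.09. There 0 were higher, beside 3092 of all 19555 genes. The 1 gene was Myb, a factor of early ciliated and of proliferating blood cells, at least 1.44-fold lower (adjusted p = 0.0141). In NB_Stim Myb was 2.38-fold lower than in NB_FACS (adjusted p = 0.0170) and Trp73, an upstream factor of the ciliated program, was 2.79-fold higher (adjusted p = 0.00342). That is 10% in each direction, beside 15.1% of all genes lower and 16% higher. No NB_Control or A_FACS array read Myb above background, and its mean was 3.97 in NB_FACS and 2.72 in NB_Stim. Since the filter can have kept Myb for its NB_FACS signal, its calls as lower than in NB_FACS support nothing. They are included in the counts.

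**Figure D4:**
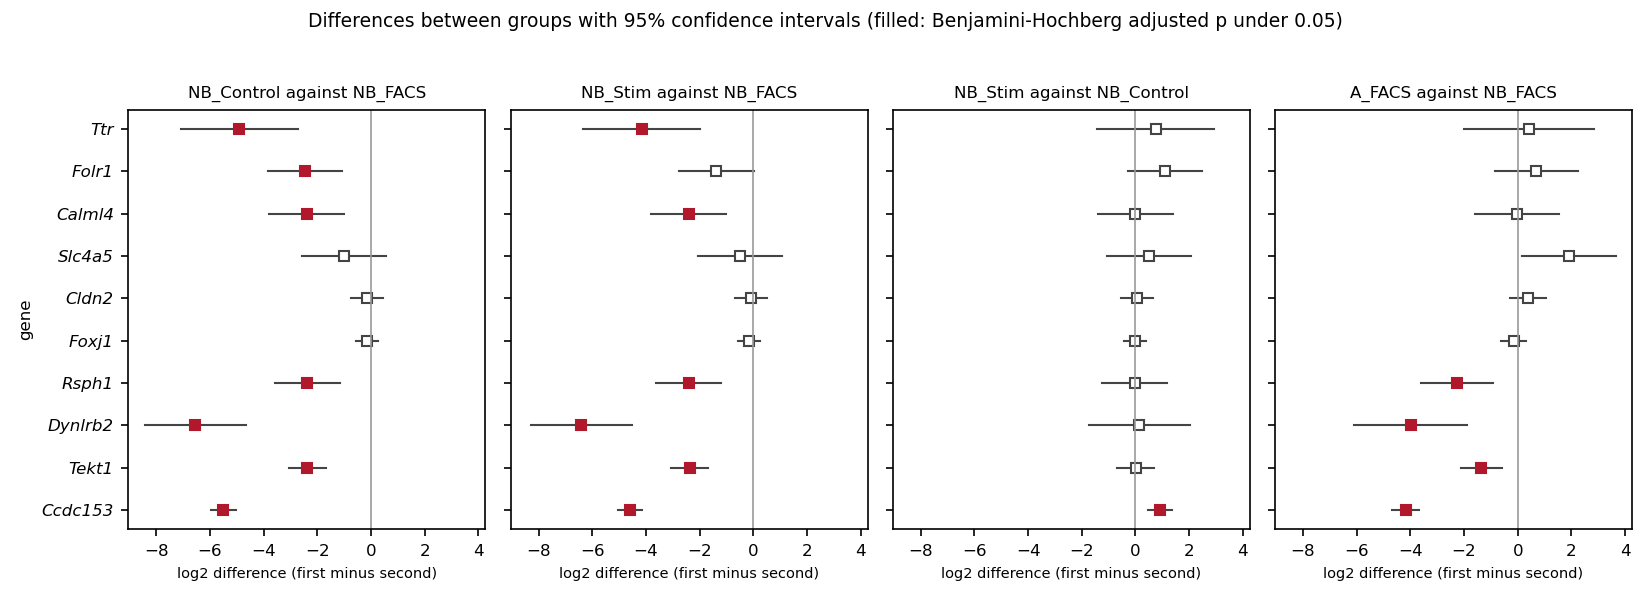
Log2 difference (horizontal axis, first group minus second) of each of the 10 genes (vertical axis) in 4 comparisons, with 95% confidence intervals; filled squares passed the adjusted threshold. In both comparisons of cultured with sorted newborn cells Dynlrb2 lies farthest to the left, at -6.55 and -6.40, and between the 2 cultures all intervals except that of Ccdc153 cross 0.

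Few of these genes passed the test between the cultures with and without cytokines. Between NB_Stim and NB_Control, 1 of 10 genes was called higher, where 1.4% of all genes were, and 0 were called lower. The gene was Ccdc153 (0.91 ± 0.21, adjusted p = 0.0426), whose mean includes probe MMXS50139, below background on all 6 of these arrays. Probe MMXS49446 alone gave 0.68 (adjusted p = 0.409). The 3 NB_Stim arrays, at 3.30 to 3.56, lay above the 3 of NB_Control, at 2.09 to 2.83, both near the lowest signal called above background. The call was lost in 8 of the 11 fits that left out 1 array, where the adjusted p reached 0.143. Ttr differed by 0.75 between the cultures, with an interval from -1.43 to 2.93, so that a change of several fold in either direction was not detectable with these arrays. For Foxj1 the interval was narrow, from -0.44 to 0.39. For Tekt1 it ran from -0.68 to 0.69, for Rsph1 from -1.24 to 1.18 and for Dynlrb2 from -1.74 to 2.03.

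In the wider lists 1 of 40 cilia genes was lower in NB_Stim than in NB_Control, and 0 were higher (2.5% lower, beside 2% of all genes). It was Meig1 (adjusted p = 0.0221), with log2 levels of 4.89, 5.08 and 4.51 in NB_Control and 1.25, 1.18 and 3.57 in NB_Stim. Only 1 of the 3 NB_Stim arrays was above background, so no fold is given. Of 24 choroid plexus genes 1 was lower (4.17%), the cation channel Trpv4 (1.77-fold, adjusted p = 0.0286), and 0 were higher. Of the 10 regulators limma called 0 in either direction, and 1 had an unadjusted p under 0.05.

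Adult sorted cells differed from newborn sorted cells in the ependymal genes. In A_FACS 4 of the 10 genes were lower than in NB_FACS, where 12.9% of all genes were, and 0 were higher. All 4 were ependymal. Ccdc153 gave 3.64 and 4.10 on the adult arrays, 18.1-fold under NB_FACS (-4.18 ± 0.23, adjusted p = 7.14e-06). Dynlrb2 gave 3.92 and 7.85, 15.8-fold lower (-3.98 ± 0.94, adjusted p = 0.0140), Rsph1 gave 5.85 and 8.64, 4.81-fold lower (-2.27 ± 0.60, adjusted p = 0.0236), and Tekt1 gave 4.64 and 5.85, 2.56-fold lower (-1.36 ± 0.34, adjusted p = 0.0187). None of the 4 overlapped with NB_FACS, a split that was not counted over all genes. The Tekt1 probes differed in this comparison by -2.57 (MMXS01756) and -0.15 (MMXS57666). MMXS01756 passed the filter through NB_FACS alone, so the Tekt1 call is included in the count but supports nothing. It was lost with the brightest probe of a gene (-0.15, adjusted p = 0.820) and with probes above background on every array (adjusted p = 0.809). Fitted on the sorted groups alone, Rsph1 (adjusted p = 0.0953), Dynlrb2 (adjusted p = 0.0508) and Tekt1 (adjusted p = 0.0555) were no longer called, and Rsph1 also lost its call without NB_FACS replicate 2 (adjusted p = 0.0548) or 3 (adjusted p = 0.0614).

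The other 6 genes were not called between the sorted groups. Ttr differed by 0.42 ± 1.09 (adjusted p = 0.826), Folr1 by 0.70 ± 0.69 (adjusted p = 0.525), Calml4 by -0.02 ± 0.69 (adjusted p = 0.987), Slc4a5 by 1.91 ± 0.78 (adjusted p = 0.109; 2.25 and 0.0409 with the slide as a block), and Cldn2 by 0.40 ± 0.30 (adjusted p = 0.394). In all 5 the NB_FACS arrays lay within or overlapped the range spanned by the 2 adult arrays.

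Of the 40 cilia genes 19 were lower and 1 was higher in A_FACS than in NB_FACS (47.5% lower, beside 12.9% of all genes), with a median of -0.78. Meig1 was 12.8-fold lower (adjusted p = 0.00240) and Mns1, an axonemal protein, 10.1-fold (adjusted p = 0.000204). Drc1 (adjusted p = 0.00794) and Nme5, a radial spoke component (adjusted p = 0.0202), were lower too, each with 1 of 2 adult arrays above background. Nme5 passed the filter through NB_FACS alone, so its call supports nothing. The 1 gene that was higher was Armc3 (1.06 on the log2 scale, adjusted p = 0.00251), named after its value was seen. Of 24 choroid plexus genes 3 were higher and 0 lower (12.5% higher, beside 9.76% of all genes): Enpp2, which encodes autotaxin and is abundant in the choroid plexus (10.8-fold, adjusted p = 0.0229), the coagulation factor gene F5 (8.91-fold, adjusted p = 0.0435) and Trpv4 (1.92-fold, adjusted p = 0.00599). F5 gave 6.03 on adult replicate 1 and 9.7 on replicate 2, against 3.93 to 6.01 in NB_FACS, so its fold came mostly from replicate 2. Myb was at least 1.65-fold lower (adjusted p = 0.00436), the 1 call among the 10 regulators (10% lower, beside 12.9% of all genes). As given above, the calls of Myb against NB_FACS support nothing.

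Against the cultures, A_FACS was higher for 6 of the 10 genes in NB_Control, where 17.6% of all genes were, and for 5 of 10 in NB_Stim, where 17.5% were. These comparisons share the A_FACS arrays. Ttr was 40.1-fold higher in A_FACS than in NB_Control (5.33, adjusted p = 0.00340) and 23.9-fold higher than in NB_Stim (4.58, adjusted p = 0.00803). Against NB_Control its difference was 6.75 without A_FACS replicate 1 and 3.89 without replicate 2, and against NB_Stim it was 5.99 and 3.14, the last not called (adjusted p = 0.0826). Folr1, Calml4, Slc4a5 and Tekt1 were also called higher than in both cultures, and Ccdc153 passed against NB_Control (2.51-fold, adjusted p = 0.00133) and not against NB_Stim. With the replicate number as a block, Tekt1 was no longer called against either culture (adjusted p = 0.0530 and 0.0534), and Dynlrb2 was called against NB_Control (2.69, adjusted p = 0.0469). Rsph1 differed by 0.10 from NB_Control and by 0.13 from NB_Stim, with the adult arrays on either side of the culture arrays. Without A_FACS replicate 1, the differences from NB_Control and NB_Stim were 4.12 and 3.46 for Folr1 and 4.02 and 4.03 for Calml4. For Slc4a5 they were 2.60 and 2.47, for Tekt1 1.63 and 1.63, and for Ccdc153 1.57 and 0.64. Without replicate 2 they were smaller, at 1.90 and 0.79 for Folr1 and 0.76 and 0.77 for Calml4. For Slc4a5 they were then 1.59 and 1.07, for Tekt1 0.42 and 0.41, and for Ccdc153 1.07 and 0.18. In these fits a probe also passed the filter when the kept adult array alone read it. Rsph1 was higher than in NB_Control without replicate 1 (1.504) and lower without replicate 2 (-1.30), and likewise against NB_Stim (1.53 and -1.28).

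Choroid plexus genes were among those that differed between the 2 adult arrays. Replicate 2 was over 2-fold higher than replicate 1, a log2 difference over 1, for 8 of the 10 genes, where 4.33% of all genes were. These are 2 single arrays, so the differences carry no test. They were 2.90 for Ttr, 2.58 for Folr1, 3.25 for Calml4, 2.72 for Slc4a5, 1.26 for Cldn2, 2.79 for Rsph1, 3.92 for Dynlrb2 and 1.22 for Tekt1. Ccdc153 differed by 0.46 and Foxj1 by -0.15. Of the wider choroid plexus list 14 of 24 genes passed that difference and 0 passed it downwards, with a median of 1.52 beside 0.01 over all genes. The carbonic anhydrase Car12 read 4.50 on replicate 1 and 9.41 on replicate 2, Vat1l went from 6.33 to 10.99, Ecrg4 from 6.64 to 11.12 and Enpp2 from 7.17 to 11.05, all 4 chosen after their values were seen. Of the cilia list 9 of 40 passed and 1 passed downwards (Enkur, -1.27), with a median of 0.17. Among the 9 were Nme5, from 1.17 to 5.24, and Drc1, from 1.19 to 4.87.

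**Figure D5:**
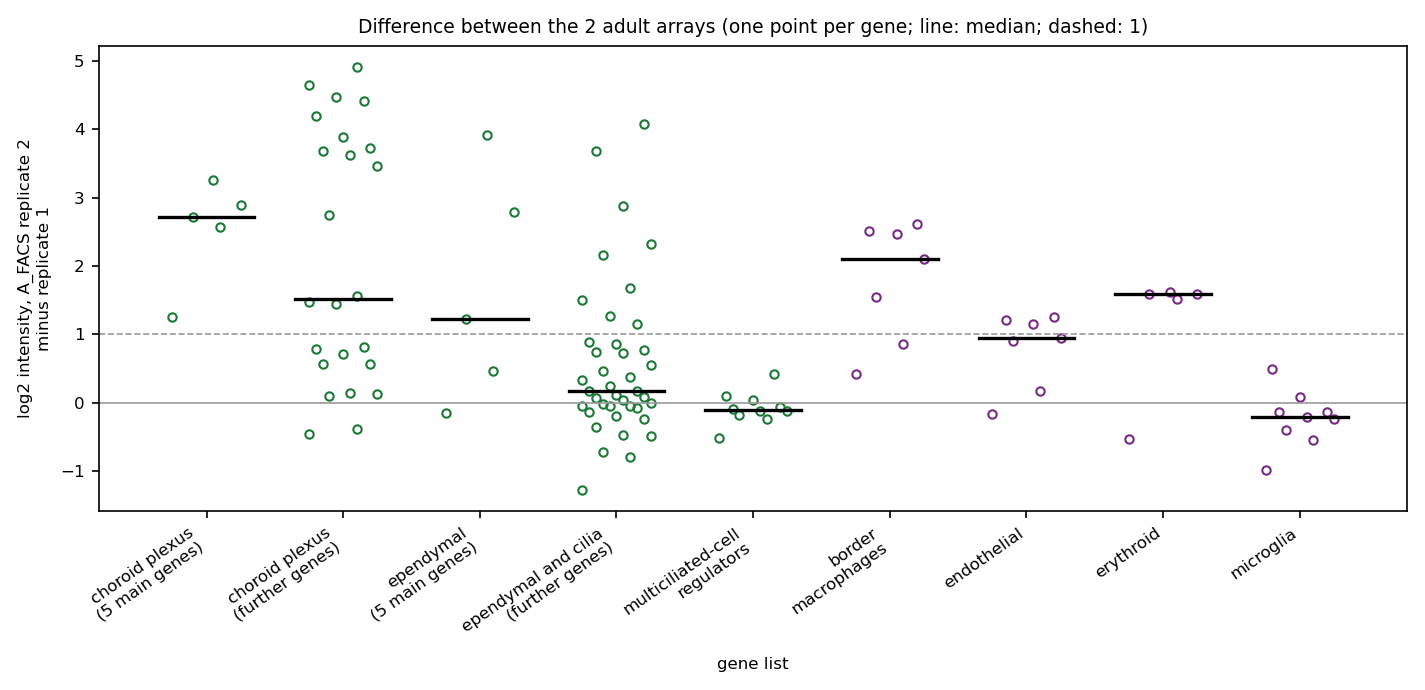
Log2 intensity of A_FACS replicate 2 minus replicate 1 (vertical axis) for the genes of 9 lists (horizontal axis), with 1 point per gene, a black line at the list median and a dashed line at 1. The 5 choroid plexus genes lie between 1.26 and 3.25, the wider choroid plexus list has a median of 1.52, and the microglia list has a median of -0.21.

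Other lists moved between the same 2 arrays. Of 7 border macrophage genes, a class that includes the macrophages of the choroid plexus, 5 were over that difference, and their summed linear level was 289 to 778 in A_FACS. For erythroid genes it was 4 of 5, for endothelial genes 3 of 7, for astrocyte genes 3 of 7, for mural genes 2 of 5, for meningeal fibroblast genes 3 of 6, for neuronal genes 1 of 6 and for oligodendrocyte lineage genes 0 of 3. The microglia list had 0 of 9 over the difference. Of the 6 fibroblast genes, Lum and Col3a1 were below background on both adult arrays, Col1a2 was read on both, and Col1a1, Dcn and Pdgfra were read on 1 each. The part of these cell types in the differences between the adult arrays was not tested.

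What A_FACS showed against NB_FACS depended on which adult array was kept. Without replicate 1, the log2 differences were 1.82 for Ttr, 2.32 for Folr1, 1.61 for Calml4, 2.05 for Slc4a5 and 1.03 for Cldn2. They were -0.23 for Foxj1, -0.87 for Rsph1, -2.03 for Dynlrb2, -0.75 for Tekt1 and -3.96 for Ccdc153. Without replicate 2, they were -1.04 for Ttr, -0.60 for Folr1, -1.67 for Calml4, 0.56 for Slc4a5 and 0.24 for Cldn2. They were then -0.08 for Foxj1, -3.69 for Rsph1, -5.99 for Dynlrb2, -1.98 for Tekt1 and -4.45 for Ccdc153. Ttr, Folr1 and Calml4 thus changed direction with the array kept, and Ccdc153 was lower in both fits. In these fits a probe also passed the filter when the kept adult array alone read it. Without replicate 1, Folr1 probe MMXS26686 and Slc4a5 probes MMXS30178 and MMXS45583 entered this way. The Slc4a5 difference there supports nothing, and that of Folr1 rests on such a probe in part. The wider lists are not counted in these fits, since genes that the kept adult array alone read were then also tested. With 1 adult array left, it was taken to vary like the arrays of the other groups.

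Markers of other cells also differed between sorted and cultured newborn groups. Of all 19555 genes, 3092 were called higher and 2719 lower (13.9%) in NB_Control than in NB_FACS. In NB_Stim 3123 (16%) were called higher and 2960 (15.1%) lower than in NB_FACS. The sum of 5 erythroid genes lay between 148744 and 204880 in NB_FACS and between 93.9 and 128 in the 6 culture arrays, with Hbb-bt below background in both cultures. The sum of 7 endothelial genes lay between 4254 and 5914 in NB_FACS and between 300 and 605 in culture, with Tek below background in both cultures. The sum of 6 fibroblast genes lay between 772 and 1046 in NB_FACS and between 7103 and 16079 in culture, with 4 of 6 called higher in NB_Control and 6 of 6 in NB_Stim. The sum of 5 mural genes lay between 1883 and 2335 in NB_FACS and between 24134 and 50801 in culture, but in each culture 3 of 5 were called higher and 1 lower. The 7 astrocyte genes summed to between 1999 and 2123 in NB_FACS and between 2882 and 3660 in culture, the 7 border macrophage genes to between 11414 and 14155 in NB_FACS and between 19328 and 87576 in culture. The border macrophage genes did not move one way: 2 of 7 were called higher and 3 lower in NB_Control, and 2 higher and 4 lower in NB_Stim, where the median log2 difference was -4.73. The 6 neuronal genes summed to between 423 and 591 in NB_FACS and between 321 and 744 in culture, and the 3 oligodendrocyte lineage genes to between 336 and 372 and between 569 and 2717. The 5 ependymal genes summed to between 2316 and 2583 in NB_FACS, 464 and 588 in culture, and 478 and 1034 in A_FACS. The part of any cell type in the differences was not tested.

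The genes whose profile over the 11 arrays lay nearest to that of Ttr, by the mean absolute difference of gene-centred log2 values, were Palmd (0.76), Aifm3 (0.81), AU021092 (0.85), Mir5130 (0.87) and Cryba4 (0.87). Palmd gave 6.94 and 8.28 in A_FACS, 6.09 to 6.95 in NB_FACS and 1.11 to 2.69 in culture. Picked for that nearness, all of these 5 were, like Ttr, higher on every sorted array than on any culture array. The likeness is in the change and not in the level, since Ttr stayed above background in culture. Nearest to Foxj1 were Dlec1 (0.07), Tmem248 (0.08), Ube2d1 (0.08), Mapk1ip1l (0.08) and Tmem53 (0.09), all with narrow ranges.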

How the data were processed

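RNA of 11 samples was hybridised to single-colour Agilent mouse arrays with 62976 spots. The authors deposited the scanner output of Agilent Feature Extraction 11.5.1.1, whose processed signal is a background-corrected intensity on a linear scale. Per the labels, each array is 1 sample, and 0 columns belonged to no sample. The deposited value table held these same processed signals on the linear scale, not quantile normalised (0 differed at a relative tolerance of 1e-05).

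Here, the processed intensities were log2 transformed and quantile normalised. Control spots and flagged outliers were left out (138 probes), and 44727 of 60037 probes were kept because all arrays of 1 or more groups read them clearly over background. Probes were named through RefSeq accessions, and a gene was the mean of its kept probes. A limma 3.58.1 model (R 4.3.3) with 1 mean per group was fitted over all 11 arrays and 19555 genes, with Benjamini-Hochberg adjustment over all of them. The fit was tested on simulated data. Figures were drawn with matplotlib 3.10.9 in Python 3.11.15. Where a group was not above background on any array, folds are lower bounds against the lowest signal above background. The number of arrays limits the precision, and p-values measure only the spread between these samples, since nothing says that all came from separate animals.

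The 10 genes and all lists were chosen with earlier results of these data known. All 10 are named, and of each wider list the 4 called genes with the largest difference in each of the 4 main comparisons. Same-numbered newborn arrays deviated together (r from 0.11 to 0.49 in every pair, and from -0.45 to 0.36 between other numbers). All negative values paired a replicate 3 array, on slide 2, with an array of slide 1. Within slide 1, r was 0.11 to 0.37 between same numbers and 0.19 to 0.36 between other numbers, so number and slide were not separated. The number was taken as a block in an alternative. Further alternatives were the scaling, the background correction, the filter, the probe rule, the slide, array weights, Tukey's test that the methods name, fits on the compared groups alone and leaving out each array.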

Additional observations from a re-analysis of the deposited data

How the results depend on the processing

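Of the differences of single genes under alternatives, 1191 kept direction and call, 89 lost the call, 21 gained it, 7 reversed, and 73 moved, being differences called in neither fit that changed sign or within-slide values, which have no test, that shifted by more than the spread between replicates. Asking for probes above background on every array left 3 called genes in NB_Control and 3 in NB_Stim against NB_FACS, 1 in A_FACS against NB_FACS, 0 between the cultures and 4 by the F test. Under that filter Calml4, left with its flat probe, turned to 0.54 in NB_Control and 0.036 in NB_Stim against NB_FACS, and to -0.95 and -0.44 in A_FACS against NB_Control and NB_Stim. Tukey's test called 3, 3 and 1 genes in these comparisons and 0 between the cultures. The single call between the cultures was also lost (0 genes) with normexp correction, without a filter, with the brightest probe and with only the compared groups. With only the compared groups 1 gene was called in A_FACS against NB_FACS, and with normexp correction 5 by the F test. The cause was not tested.

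Leaving out 1 array gave 6 to 7 called genes in NB_Control and 6 to 7 in NB_Stim against NB_FACS, 0 to 1 between the cultures, 3 to 6 in A_FACS against NB_FACS and 7 to 9 by the F test. Calml4 ranged from -1.67 to 1.61 in A_FACS against NB_FACS, and turned without A_FACS replicate 1. Rsph1 ranged from -1.30 to 1.504 against NB_Control and from -1.28 to 1.53 against NB_Stim, and turned without A_FACS replicate 2. With the replicate number as a block the counts stayed at 7, 1, 6, 4 and 8, and apart from the calls of Tekt1 and Dynlrb2 given above it changed no other call of the 10 genes. All-gene calls between the cultures went from 666 to 1196 with the block, to 5522 with array weights and to 183 by Tukey's test. Signal over background limits Dynlrb2, Folr1, Slc4a5 and Ccdc153 in culture, where not every array read them.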
